A study of Mus musculus with 19 samples.

Results

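Hdac9 and 9 other genes of the mouse histone deacetylase family (Hdac1 to Hdac8 and Hdac11) were followed across 2 prostate lobes and 2 diets. Each gene was read from probe sets that the platform annotation gives to that gene alone, and the probe set with the highest mean over all arrays stood for the gene. The 10 members have 17 such probe sets, and all 10 passed the filter on low values, among 11728 genes tested and 18193 genes named on the array. Hdac9 was picked for its ventral-lobe-restricted level, which was read from these same arrays, so its difference between lobes is a description and carries no test. The other members were chosen by family name. Hdac10, the remaining zinc-dependent deacetylase, is outside the set and is mentioned once below.

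The tissue came from C57BL/6J mice that were fed a control diet or a high fat diet (HFD) for 12 weeks from the age of 8 weeks, 5 mice to a diet. RNA of the ventral prostate (VP) and of the dorsolateral prostate (DLP) was hybridised to an Affymetrix 3′ expression array, 1 sample per array. The 19 arrays fall into control VP (5), HFD VP (5), control DLP (5) and HFD DLP (4). No genetic modification is named for any group. The labels do not say which mouse gave which array, and every p-value rests on the spread among these samples alone. Whole lobes were used, and in such bulk tissue fewer cells of a type and less RNA per cell cannot be told apart.

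Histone deacetylases remove acetyl groups from lysines of histones and other proteins, and acetylation of histones generally accompanies open, transcribed chromatin. Class I enzymes (Hdac1, Hdac2, Hdac3 and Hdac8) are mostly nuclear, and the first 3 work as catalytic subunits of corepressor complexes. Class IIa enzymes (Hdac4, Hdac5, Hdac7 and Hdac9) have little catalytic activity of their own on acetylated histones, bind MEF2 transcription factors, and leave the nucleus on 14-3-3 proteins once kinases phosphorylate them. Hdac6 (class IIb) acts largely in the cytoplasm on tubulin, and Hdac11 is the lone class IV member.

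Levels are on a log2 scale, made from deposited values taken as log10. The log base was inferred from spiked-in controls that matched it only loosely, and folds rest on it. All arrays hold the same set of values in different order, so a level reflects rank within an array, and a shift common to most genes cannot show. Every array has a median of 1.85 on this scale, which serves below as a mark of a low level. Levels are compared between arrays for 1 probe set at a time and never between probe sets.

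The sequence 5′ of an Hdac9 start is shown because the lobe pattern of Hdac9 is the result the data turn on, and Hdac11 and Hdac2 are set beside it as members with higher levels in VP and in DLP. The RefSeq promoter table (build GRCm38.p6) matched 8 of the 10 members, with 12 windows of 250 bases that end just before an annotated transcript start. Hdac1 and Hdac3 have no entry. Hdac9 has a pair of windows on the minus strand of chromosome 12, at chr12:34917096-34917345 and, farther downstream along the gene, at chr12:34528890-34529139. The Hdac11 window is chr6:91156565-91156814 and the Hdac2 window is chr10:36974294-36974543, both on the plus strand. All are upstream flanks of the named start and are written 5′ to 3′ along the gene's strand, with every CG dinucleotide in capitals.
Hdac9, upstream start: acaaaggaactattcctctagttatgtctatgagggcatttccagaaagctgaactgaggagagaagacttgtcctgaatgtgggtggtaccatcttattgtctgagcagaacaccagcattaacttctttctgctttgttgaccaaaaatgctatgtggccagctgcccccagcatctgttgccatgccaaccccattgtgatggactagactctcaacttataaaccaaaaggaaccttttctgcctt
Hdac9, downstream start: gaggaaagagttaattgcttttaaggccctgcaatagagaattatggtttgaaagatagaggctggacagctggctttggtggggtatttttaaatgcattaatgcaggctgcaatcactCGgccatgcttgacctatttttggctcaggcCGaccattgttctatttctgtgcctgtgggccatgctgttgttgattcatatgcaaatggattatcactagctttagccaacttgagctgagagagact
Hdac11: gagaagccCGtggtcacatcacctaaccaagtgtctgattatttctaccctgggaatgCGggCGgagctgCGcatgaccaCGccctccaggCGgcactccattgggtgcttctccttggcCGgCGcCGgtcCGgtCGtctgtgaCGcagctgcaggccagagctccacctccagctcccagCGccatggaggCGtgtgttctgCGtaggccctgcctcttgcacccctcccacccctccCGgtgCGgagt
Hdac2: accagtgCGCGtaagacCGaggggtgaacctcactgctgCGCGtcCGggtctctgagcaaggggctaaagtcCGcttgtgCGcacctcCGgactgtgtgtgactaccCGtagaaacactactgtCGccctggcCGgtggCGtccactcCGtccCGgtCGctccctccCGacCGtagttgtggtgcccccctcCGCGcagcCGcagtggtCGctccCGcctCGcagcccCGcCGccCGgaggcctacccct

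The Hdac9 windows hold few CG dinucleotides. The upstream one has 0 and the downstream one has 2, against a median of 6 over 32851 windows of the same length. Of all windows, 7.87% have no CG and 29.0% have 2 or fewer. Other members have more: 27 for Hdac2, 23 for Hdac4, 17 for Hdac11, 17 for Hdac6, 12 for Hdac5 and 6 for Hdac8, while the 4 windows of Hdac7 range from 5 to 25. Hdac2 has more CG dinucleotides than 91.4% of all windows. Which of the starts was in use in these lobes was not measured by the array.

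A motif was searched on both strands, chosen with the lobe pattern in view. CTANNNNTA (TANNNNTAG on the other strand) is a shortened and loosened form of the MEF2 site, as N allows any base. This pattern occurs 3 times in the downstream Hdac9 window, 37, 32 and 31 bases before the start, and these matches overlap each other. The matches at 32 and 31 come from the same stretch, read on each strand. Their N letters are GCTT, and those of the match at 37 are TCAC. A full MEF2 site holds only A or T there, so none of these matches is a full site. Hdac2 and Hdac5 also hold the loosened pattern, as do 18.96% of all windows. A match describes the letters and is not a measured binding site.

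Hdac9, a class IIa deacetylase, was high in VP and at or below the array median in most of DLP. Probe set 1434572_at read 6.38, 6.47, 6.27, 6.79 and 6.31 in control VP and 6.35, 6.61, 5.89, 6.16 and 6.69 in HFD VP. In DLP it read 1.14, 1.97, 1.48, 1.42 and 1.25 on the control diet and 0.83, 2.11, 1.49 and 1.72 on HFD. The lowest VP array is far above the highest DLP array, and the diets overlap within each lobe. Group means were 6.45 ± 0.21 (SD, n = 5) in control VP, 6.34 ± 0.33 (SD, n = 5) in HFD VP, 1.45 ± 0.32 (SD, n = 5) in control DLP and 1.54 ± 0.54 (SD, n = 4) in HFD DLP. Ordered by level, the VP groups come first and do not differ beyond their spread, and the DLP groups come last and do not either.

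The VP minus DLP difference of Hdac9 was 4.99 on the control diet (31.8-fold) and 4.80 on HFD (27.9-fold). By size these rank 22nd and 31st of 11728 genes. Leaving out any 1 array kept the difference between 4.91 and 5.12 on the control diet and between 4.57 and 4.99 on HFD. The VP means lie 4.60 and 4.49 above the array median, while the DLP means lie at -0.39 and -0.31 relative to it. Only 1 of 5 control DLP arrays and 1 of 4 HFD DLP arrays read above that median. The DLP level is therefore low enough that the size of the fold depends on the scale: subtracting 1 from the linear value, an alternative chosen after seeing the data, gave differences of 5.65 and 5.46.

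A second Hdac9 probe set, 1421306_a_at, was also higher in VP than in DLP, at a smaller distance. It read 1.75, 2.05, 1.95, 1.51 and 2.12 in control VP, and 1.60, 1.88, 1.65, 1.66 and 2.08 in HFD VP. In DLP it read 1.35, 0.72, 0.66, 0.68 and 0.72 on the control diet and 0.56, 0.51, 1.09 and 0.57 on HFD. Every VP array is above every DLP array here too, yet even in VP only 3 of 5 control and 2 of 5 HFD arrays exceeded the array median. The lobe differences of this probe set were 1.05 and 1.09, and averaging both probe sets gave 3.02 and 2.95 for the gene. The position of each probe set within the transcripts was not analysed here.

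**Figure D1:**
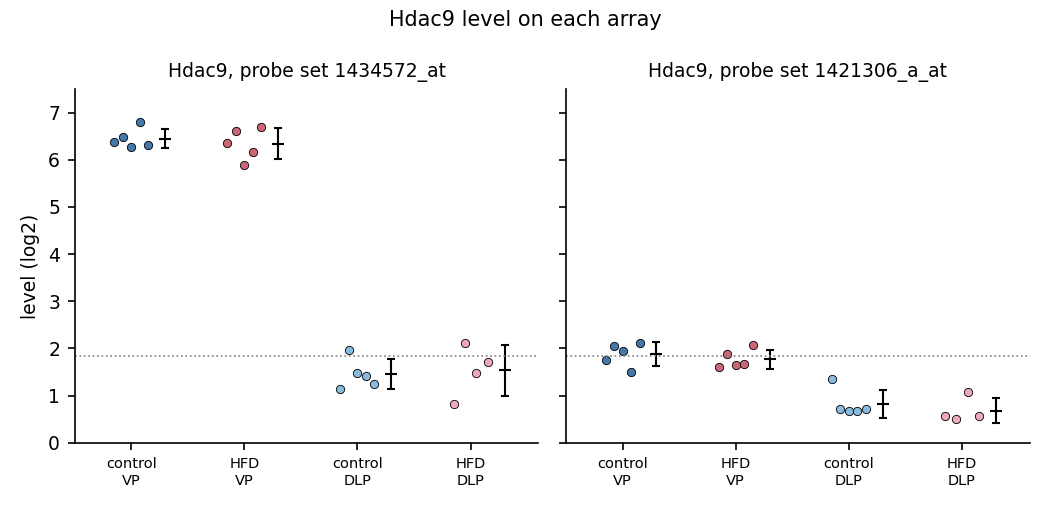
Hdac9 level (log2) on each of 19 arrays for its 2 probe sets, by lobe and diet; points are arrays, bars to their right are mean ± SD and the dotted line is the array median of 1.85. Probe set 1434572_at lies between 5.89 and 6.79 in VP and between 0.83 and 2.11 in DLP. Probe set 1421306_a_at is also higher in VP than in DLP, near or below the median.

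No diet difference of Hdac9 was detectable in either lobe. In VP the HFD minus control difference was -0.11 ± 0.20 (SE), with a 95% interval from -0.53 to 0.31, a two-sided exact permutation p of 0.556 and a limma adjusted p of 0.85. In DLP it was 0.08 ± 0.21 (SE), from -0.36 to 0.53, with an exact permutation p of 0.778. The 5 against 5 and 4 against 5 arrays leave changes within these intervals undetected. The second probe set gave -0.10 in VP and -0.14 in DLP, with exact permutation p-values of 0.484 and 0.556. The diet difference itself did not differ between lobes by limma's interaction test (-0.19, adjusted p = 0.90).

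Within DLP, Hdac9 probe set 1434572_at was highest on the arrays numbered 2 of each diet, at 1.97 and 2.11. Probe set 1421306_a_at was not highest there and read 0.72 and 0.51, the latter being the lowest of HFD DLP. The 50 other genes with the largest mean VP excess, chosen after their values were seen, also ran high on the arrays numbered 2. On control DLP array 2 their median deviation from the group mean was 0.37, with 44 of 50 above it. On HFD DLP array 2 it was 0.53, again with 44 of 50 above it. On the other DLP arrays that median lay between -0.23 and 0.03. In VP, too, the arrays numbered 2 had the highest median of their groups. It was 0.21 with 37 of 50 genes above on the control diet, and 0.17 with 34 of 50 on HFD. Hdac9 itself was highest on other VP arrays, control VP array 4 and HFD VP array 5. The part of that median in the Hdac9 level was not tested.

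Over all 19 arrays the gene whose pattern was most like that of Hdac9 was Slc2a12, which encodes a facilitative glucose transporter. It read 6.40, 6.73, 6.62, 7.16 and 6.32 in control VP and 6.82, 6.90, 6.34, 6.74 and 6.72 in HFD VP. In DLP it read 2.03, 2.98, 2.30, 2.36 and 2.10 on the control diet and 1.74, 2.80, 2.21 and 2.34 on HFD. The same DLP arrays numbered 2 are the highest of their groups. Pearson's r with Hdac9 was 0.998 over 19 arrays, a figure set by the lobe gap that both genes share. After subtracting group means r was 0.897 over 19 arrays, 0.749 over the 10 VP arrays and 0.973 over the 9 DLP arrays. These points share array, lobe dissection and the rank-based scale.

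**Figure D2:**
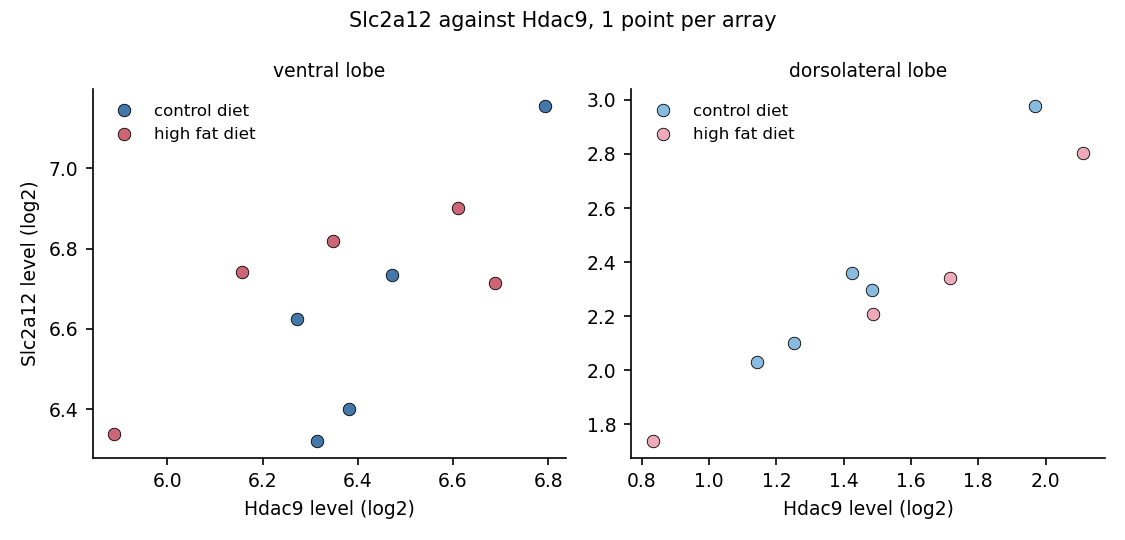
Slc2a12 level (log2) against Hdac9 level (log2), 1 point per array, with VP on the left and DLP on the right and colour marking the diet. Within each lobe arrays with more Hdac9 tended to have more Slc2a12, and the DLP arrays at Hdac9 1.97 and 2.11 have the highest Slc2a12 of that lobe, 2.98 and 2.80.

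The next genes by correlation over 19 arrays were Lclat1 (a cardiolipin acyltransferase, r = 0.994), Acaa2 (a mitochondrial fatty acid oxidation enzyme, r = 0.993), Cntnap2 (a cell adhesion protein, r = 0.992), Slc26a4 (an anion exchanger, r = 0.992) and Adi1 (a methionine salvage enzyme, r = 0.992). Their VP minus DLP differences on the control diet were 2.27 for Lclat1, 1.84 for Acaa2, 2.03 for Cntnap2, 4.65 for Slc26a4 and 2.57 for Adi1. By deviations from group means the closest after Slc2a12 were Ttf1 (a transcription termination factor, r = 0.835), Poc1b (a centriole protein, r = 0.786) and Zfp954 (a zinc finger protein, r = 0.779). These last 3 genes had lobe differences of 0.20, 0.25 and 0.31 on the control diet, so they do not share the lobe gap of Hdac9. Like Slc2a12, they were picked as the highest of all genes by this same r, so its height is no test of likeness. Within VP alone the order differs: over the 10 VP deviations r was 0.911 for Adi1, 0.848 for Poc1b and 0.843 for Acaa2, above the 0.749 of Slc2a12.

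Hdac9's neighbours on chromosome 12 were read for comparison, by gene order alone. Among the 4 protein-coding genes on each side, 3 were tested. Snx13, a sorting nexin and the second gene on one side, read 7.02 ± 0.16 (SD, n = 5) in control VP and 6.11 ± 0.05 (SD, n = 5) in control DLP. That is a difference of 0.91 (limma adjusted p = 2.0e-08), and it was 1.04 on HFD (adjusted p = 7.7e-09). Twistnb, an RNA polymerase I subunit, differed by -0.07 and -0.01, and Ahr, the aryl hydrocarbon receptor, by -0.05 and -0.16, with adjusted p-values from 0.42 to 0.93. Twist1, Ferd3l, Prps1l1, Efcab10 and Agr3 were not among the genes tested.

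The lobe contrast of the other 9 members has to be read against the whole array, where most genes differ between lobes. Of 11728 genes, 55% passed the threshold (limma adjusted p under 0.05) on the control diet, 26.8% higher in VP and 28.2% higher in DLP. On HFD the share was 52.9%, 26.1% higher in VP and 26.8% higher in DLP. Of the 9 members, 4 passed on the control diet (1 higher and 3 lower in VP) and 3 on HFD (1 higher and 2 lower). Both totals are below the array-wide shares, although the 3 of 9 that were lower on the control diet lie above the 28.2% of all genes. The median difference of the 9 was -0.17 on the control diet and -0.08 on HFD, against about 0 (-0.00) for all genes. Their median size of 0.22 and 0.08 was below the 0.30 of all genes on both diets.

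Markers of several cell types, though not of all, differed between lobes in the same contrast. Of 8 luminal epithelial markers tested, all of them above the array median in every group, 5 were higher and 1 lower in VP on the control diet, and their mean level per array ran from 8.93 to 9.29 in control VP and from 8.68 to 8.84 in control DLP. Smooth muscle markers were lower in VP (6 of 8; 6.18 to 6.65 against 6.98 to 7.09), as were basal markers (4 of 4; 2.98 to 3.59 against 3.59 to 4.14) and nerve markers (5 of 5; 0.77 to 1.14 against 1.65 to 4.75), whereas 3 of 6 macrophage markers were higher (3.18 to 4.35 against 2.82 to 3.92). Other lists showed less: 0 of 5 endothelial markers were called, and 1 of 6 fibroblast markers was lower. Of 3 skeletal muscle markers 1 was higher and 1 lower, as for 3 B and plasma cell markers. Of 2 T cell markers 1 was lower, and of 2 adipocyte markers 1 was higher. These control-diet counts stand against 55% of all genes called in either direction. On HFD, where 52.9% of all genes were called, 6 of 8 smooth muscle, 2 of 4 basal and 2 of 5 nerve markers were lower. There 5 luminal markers were higher and 2 lower, and 3 of 6 macrophage markers were higher. On HFD 1 of 5 endothelial and 1 of 6 fibroblast markers were lower. Skeletal muscle markers again had 1 higher and 1 lower, adipocyte markers 1 higher, and T cell and B and plasma cell markers 0 called. The part of the markers in the lobe differences of the deacetylases was not tested.

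Hdac1, a class I catalytic subunit of the SIN3, NuRD and CoREST complexes, was lower in VP than in DLP. It read 5.19, 5.36, 5.33, 4.72 and 5.46 in control VP and 5.44, 5.26, 5.53, 5.44 and 5.37 in HFD VP. Its DLP values were 5.74, 5.67, 5.58, 5.69 and 5.51 on the control diet and 5.67, 5.69, 5.71 and 5.68 on HFD. Array 4 of control VP is the lowest of all, and the lobes do not overlap on either diet. The difference was -0.43 ± 0.10 (SE) on the control diet (limma adjusted p = 0.0014) and -0.28 ± 0.11 on HFD (adjusted p = 0.035). The HFD call is lost without HFD VP array 2 or 5 or without any 1 HFD DLP array, with adjusted p-values up to 0.082. It is also lost when every probe set is tested by itself without the filter on low values (adjusted p = 0.053).

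Hdac2, the close paralog of Hdac1 in the same complexes, was also lower in VP. It read 4.75, 4.70, 4.84, 4.82 and 4.91 in control VP and 4.80, 4.81, 4.83, 4.98 and 5.04 in HFD VP. The DLP arrays read 5.11, 5.20, 5.32, 4.92 and 5.10 on the control diet and 5.06, 5.18, 5.01 and 5.10 on HFD. The lobes are apart on the control diet and overlap on HFD. The difference was -0.33 ± 0.07 (SE) on the control diet (limma adjusted p = 0.00093) and -0.19 ± 0.08 on HFD (adjusted p = 0.044). The HFD call is lost in 12 alternative settings, with adjusted p-values up to 0.125, among them leaving out HFD VP array 1, 2 or 3, HFD DLP array 1, 2 or 4, or control DLP array 1 or 5. A second Hdac2 probe set (1449080_at) gave -0.13 and -0.18 and another, dim one (1439704_at) gave 0.15 and -0.02, none of them past the threshold over all probe sets. In that same fit the probe set that stands for Hdac2 passed on the control diet (adjusted p = 0.0019) and missed on HFD (adjusted p = 0.077), so the control call rests on 1 probe set and on HFD no Hdac2 probe set passed there.

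Hdac3, the catalytic subunit of the NCoR corepressor complex, showed a small lobe difference on the control diet. It read 4.96, 4.84, 5.08, 4.89 and 5.06 in control VP and 5.20, 5.03, 5.31, 5.23 and 5.11 in HFD VP. Dorsolateral arrays read 5.16, 5.05, 5.24, 5.16 and 5.15 on the control diet and 5.28, 5.30, 5.29 and 5.16 on HFD. The lobes overlap on both diets. The difference was -0.19 ± 0.07 (SE) on the control diet (limma adjusted p = 0.023) and -0.08 ± 0.07 on HFD (adjusted p = 0.33). The control call is lost without control VP array 2 (adjusted p = 0.069) or control DLP array 3 (adjusted p = 0.061).

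Hdac8, a class I enzyme that deacetylates the cohesin subunit SMC3, was near the array median throughout. Group means ran from 1.57 in HFD VP to 1.75 in HFD DLP, and only 5 of 19 arrays exceeded the median. Its lobe differences were -0.11 ± 0.18 (SE) and -0.18 ± 0.19 and did not pass the threshold. Whether this low level hid a difference was not tested.

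The class IIa relatives of Hdac9 did not share its lobe pattern. Hdac4, known from muscle and cartilage, read 2.57 ± 0.16 (SD, n = 5) in control VP and 2.79 ± 0.12 (SD, n = 5) in control DLP, a difference of -0.22 (95% interval from -0.44 to 0.01, limma adjusted p = 0.094). Hdac5, a signal-responsive repressor of MEF2 targets, differed by -0.17 on the control diet (from -0.35 to 0.01, adjusted p = 0.10). Hdac7, prominent in endothelium and thymocytes, differed by 0.25 (from -0.01 to 0.52, adjusted p = 0.092). On HFD the 3 differences were -0.08 for Hdac4, 0.05 for Hdac5 and 0.07 for Hdac7, with adjusted p-values from 0.61 to 0.69. Each 95% interval excludes a gap on the scale of Hdac9's, although Hdac5 passes without control VP array 1 (adjusted p = 0.042) and Hdac7 without control VP array 2 (adjusted p = 0.044).

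Their other probe sets did not always follow. For Hdac4, 1454693_at gave lobe differences of -0.16 and 0.22 and 1447566_at gave -0.00 and 0.26, none past the threshold. For Hdac7, 1420812_at gave -0.09 and 0.14, opposite in sign to 1420813_at on the control diet. These signs depend on the probe set, and no direction is drawn from them.

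Hdac6, the tubulin deacetylase, was level across the groups, with means of 3.54 in control VP, 3.55 in HFD VP, 3.47 in control DLP and 3.54 in HFD DLP. Its lobe differences were 0.07 (95% interval from -0.20 to 0.35) and 0.01 (from -0.28 to 0.30). Hdac10, the other class IIb gene, differed by -0.08 and -0.10 and did not pass either.

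Hdac11, the class IV enzyme that also removes long fatty acyl groups from lysines, was the other member with more signal in VP. It read 5.18, 5.32, 5.03, 5.35 and 5.51 in control VP and 5.09, 5.42, 4.91, 5.29 and 5.34 in HFD VP. Values in DLP were 4.47, 4.79, 4.84, 4.60 and 4.81 on the control diet and 4.65, 4.83, 4.67 and 4.66 on HFD. Every VP array lies above every DLP array of its diet. The difference was 0.58 ± 0.10 (SE) on the control diet (1.49-fold, limma adjusted p = 9.1e-05) and 0.51 ± 0.11 on HFD (1.42-fold, adjusted p = 0.00061), and it passed in all 19 fits that left out 1 array. The dimmer probe set 1454803_a_at gave 0.46 (adjusted p = 0.069) and 0.38 (adjusted p = 0.17). Over 19 arrays Hdac11 had an r of 0.898 with Hdac9, which the lobe gap sets, and over the 10 VP deviations r was 0.62.

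Among those VP deviations r with Hdac9 was below 0 for genes of more than 1 class, at -0.83 for Hdac3, -0.69 for Hdac1, -0.58 for Hdac4 and -0.51 for Hdac7. It was near 0 for Hdac8 (-0.05), Hdac5 (0.01) and Hdac2 (0.11) and was 0.56 for Hdac6. These are 10 arrays that share lobe and scale, and 2 of them (control VP 4, with high Hdac9 and the lowest Hdac1, and HFD VP 3, with low Hdac9) lie at the ends. The other Hdac9 probe set, 1421306_a_at, was at its lowest of control VP on array 4 (1.51).

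**Figure D3:**
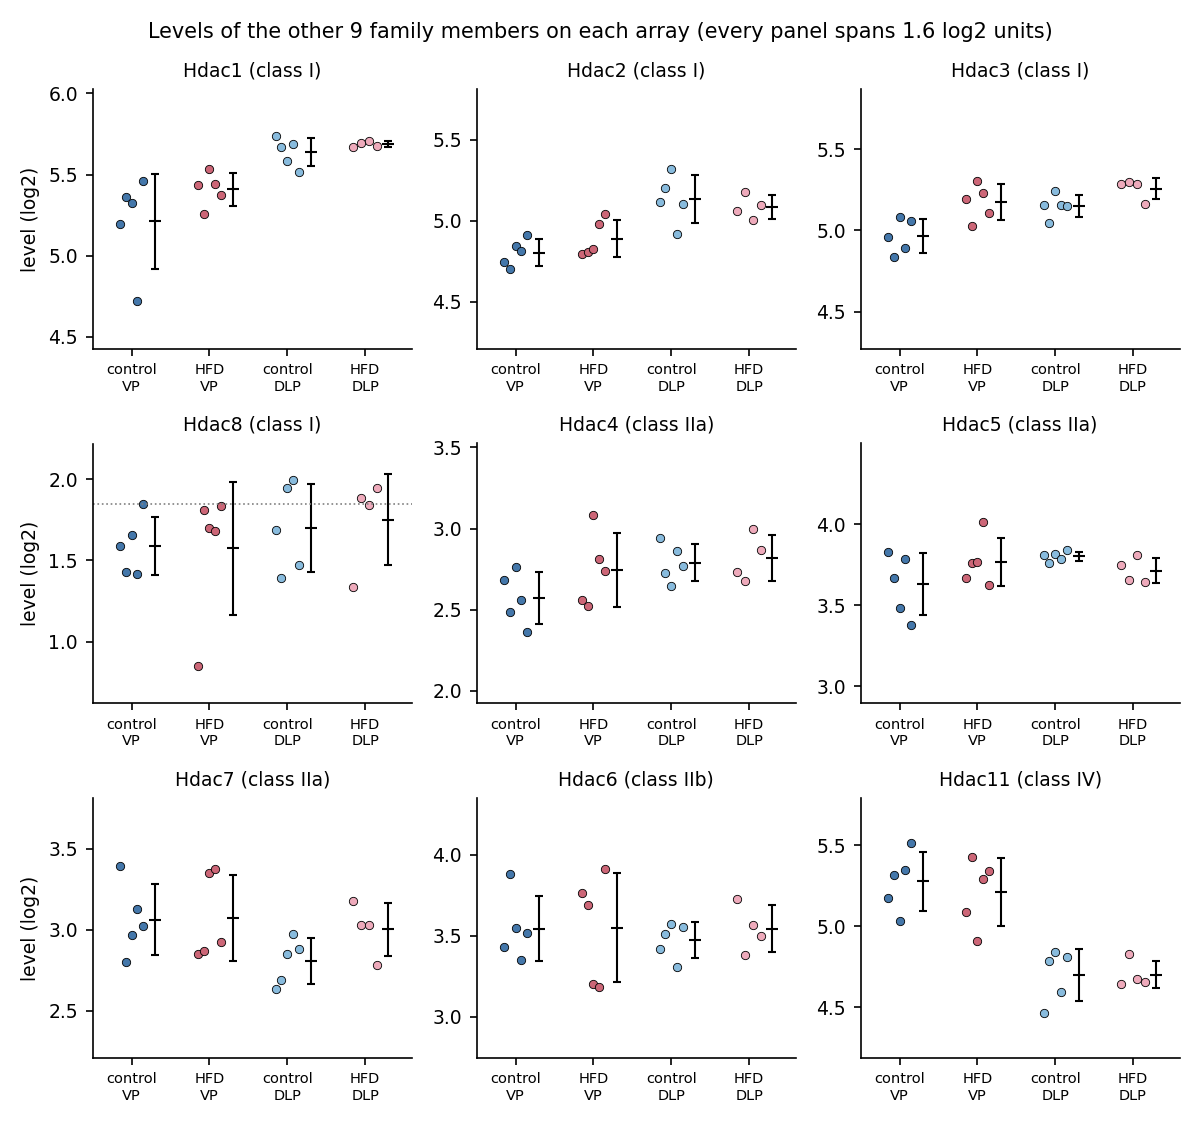
Levels (log2) of Hdac1, Hdac2, Hdac3, Hdac8, Hdac4, Hdac5, Hdac7, Hdac6 and Hdac11 on each of 19 arrays by lobe and diet; points are arrays, bars are mean ± SD, every panel spans the same 1.6 log2 units, and the dotted line is the array median where in range. Hdac1 and Hdac2 sit lower and Hdac11 higher in VP than in DLP, and the other panels overlap between lobes on at least 1 diet.

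No family member passed the diet contrast in either lobe. In VP 0 of 10 passed, where 1.11% of all genes did (130 of 11728), and 0.13 was the smallest limma adjusted p of a member. In DLP 0 of 10 passed by limma, and so did 0% of all genes, of which 662 had an unadjusted p under 0.05, with 0.0638 as the lowest adjusted value. Without adjustment 1 of 10 members in VP had a limma p under 0.05, where 1786 of 11728 genes did. In DLP 0 of 10 members did. The lobe-by-diet interaction called 0.00853% of all genes (1 gene) and 0 of 10 members.

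The member closest to the diet threshold was Hdac3. It was 0.21 ± 0.07 (SE) higher on HFD in VP (limma adjusted p = 0.13, two-sided exact permutation p = 0.032) and 0.11 ± 0.07 higher in DLP (adjusted p = 0.97, exact permutation p = 0.032). The array values given above overlap between diets in both lobes. Of the 10 members it alone had an exact p under 0.05, in each lobe, and neither difference holds after adjustment over all genes. Exact tests were not run over all genes, so no array-wide share stands beside these p-values. Hdac1 differed by 0.20 in VP (adjusted p = 0.37), with control VP array 4 setting much of it: leaving arrays out 1 at a time moved it between 0.07 and 0.26.

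A secondary Hdac4 probe set separated the diets in DLP without passing the test. Probe set 1454693_at read 2.67, 2.84, 2.51, 2.69 and 2.67 on the control diet and 2.39, 2.50, 2.38 and 2.31 on HFD, with no overlap. The difference was -0.28 ± 0.09 (SE), with a limma adjusted p of 0.83 over all probe sets. The probe set that stands for Hdac4 gave 0.03 in the same contrast. Probe set 1454693_at was picked from 17 member probe sets for this separation. How many of all probe sets separate the diets in this way was not counted.

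**Figure D4:**
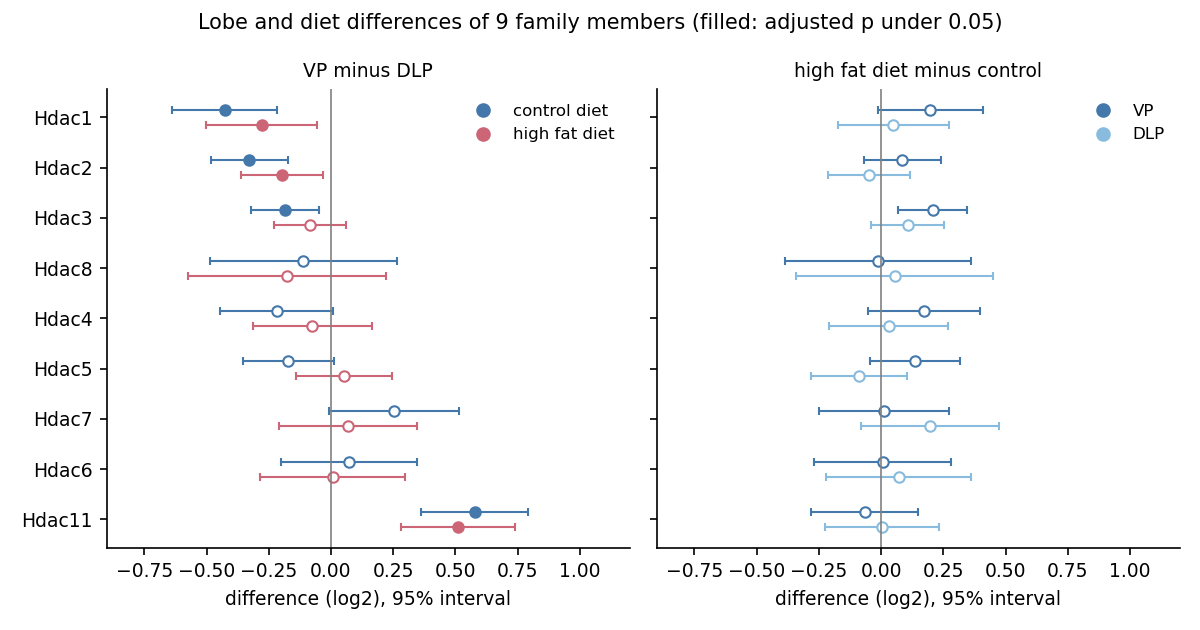
Lobe differences (left, VP minus DLP) and diet differences (right, HFD minus control) in log2 for 9 family members, with 95% intervals; filled points have a limma adjusted p under 0.05. Hdac1, Hdac2 and Hdac11 are filled on both diets and Hdac3 on the control diet alone, and no diet point is filled.

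The partners of class IIa enzymes were read from lists drawn up for this family. Of 14 kinases that phosphorylate them or belong to the same families, 3 were higher and 5 lower in VP on the control diet and 3 higher and 6 lower on HFD, against 55% and 52.9% of all genes called in either direction. Camk2g, a calcium/calmodulin kinase subunit, was lower in VP by 1.07 on the log2 scale (-1.07 ± 0.08 SE, limma adjusted p = 5.5e-10) and Camk4, another calcium-dependent kinase, by 1.01 (-1.01 ± 0.11, adjusted p = 3.0e-07). Camk2b, a further calcium/calmodulin kinase subunit, differed by -0.99 ± 0.26 (adjusted p = 0.0033) and by -0.68 on HFD, where the call is lost in 7 alternative settings (adjusted p up to 0.135). Prkd3, a protein kinase D, was higher by 0.88 ± 0.09 (adjusted p = 6.6e-08). On HFD the differences were -1.21 for Camk2g, -1.19 for Camk4 and 0.97 for Prkd3.

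Of 6 genes for 14-3-3 proteins, the cytoplasmic anchors of phosphorylated class IIa enzymes, 1 was higher and 1 lower in VP on the control diet, a smaller part than the 55% of all genes. Ywhah was higher by 1.10 ± 0.13 (SE; limma adjusted p = 6.5e-07) and Ywhag differed by -0.49 ± 0.12 (adjusted p = 0.0014). On HFD, where 52.9% of all genes were called, 3 were higher and 1 lower. Of these calls Ywhae (0.28) and Ywhaq (0.18) changed sign when probe sets were averaged, and Ywhag (-0.31) is lost in 9 alternative settings (adjusted p up to 0.225). Ywhab (-0.14 and -0.01) and Ywhaz (-0.03 and -0.07) did not pass on either diet.

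MEF2 factors, the DNA-binding partners of class IIa enzymes, gave the only diet call of these lists in limma's fit. Mef2d read 4.59, 4.62, 4.47, 4.69 and 4.62 in control VP and 4.85, 4.77, 4.91, 4.99 and 4.86 in HFD VP. The diets do not overlap. The difference was 0.28 ± 0.06 (SE; limma adjusted p = 0.034), and it missed the threshold in 13 alternative settings, where adjusted p-values reached 0.907 with the mean of probe sets. In DLP it was -0.03 (adjusted p = 0.996), and the interaction was not past the threshold (adjusted p = 0.37). Mef2a was higher in VP by 0.46 and 0.41 (adjusted p = 0.00022 and 0.0012), which the mean of its probe sets reduced to 0.01 and 0.06. Mef2d was higher in VP on HFD (0.31, adjusted p = 0.00042), a call lost with the mean of probe sets (adjusted p = 0.087). Mef2c differed by -0.14 and -0.13 and did not pass.

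The complexes that hold class I enzymes differed gene by gene, and their counts stand against 55% of all genes called on the control diet and 52.9% on HFD. Of 12 SIN3 complex genes, 5 were higher and 4 lower in VP on the control diet and 7 higher and 2 lower on HFD. Sap30, a SIN3 subunit, was higher by 1.30 ± 0.13 (SE; limma adjusted p = 5.3e-08) and Brms1, another, by 0.74 ± 0.14 (adjusted p = 0.00018). Rbbp7, a histone-binding subunit shared with NuRD, differed by -0.91 ± 0.08 (adjusted p = 9.3e-09). Sap30bp, which binds the SIN3 subunit SAP30, differed by -0.62 ± 0.08 (adjusted p = 1.2e-06) and by -0.88 on HFD. Both Sap30bp calls are lost with the mean of its probe sets, at -0.12 (adjusted p = 0.16) and -0.16 (adjusted p = 0.085).

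Among 9 NuRD genes 1 was higher and 2 lower on the control diet, below the array-wide 55%, and 2 each way on HFD, where the share was 52.9%. Mta3, a NuRD subunit, was higher in VP by 0.64 ± 0.08 (SE; limma adjusted p = 1.5e-06), and Gatad2b, a scaffold subunit, differed by -0.48 ± 0.07 (adjusted p = 6.1e-06). Mta2, a paralog of Mta3, differed by -0.32 ± 0.09 (adjusted p = 0.0059). Of the 4 HFD calls, Mta3 (0.60) alone held with the mean of probe sets: Gatad2a turned from 0.23 to -0.16 (adjusted p = 0.023), the remodelling ATPase Chd4 went from -0.35 to -0.02 (adjusted p = 0.87) and Gatad2b from -0.42 to -0.08 (adjusted p = 0.40).

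Of 6 CoREST genes 2 were higher and 1 lower in VP on the control diet, near the array-wide 55%, and 3 were higher and 1 lower on HFD. The demethylase Kdm1a was higher by 0.24 ± 0.07 (SE; limma adjusted p = 0.0078) and the corepressor subunit Rcor3 by 0.30 ± 0.10 (adjusted p = 0.019), while Hmg20b, an HMG-box subunit, differed by -0.25 ± 0.09 (adjusted p = 0.028). On HFD these differences were 0.20, 0.32 and -0.36, and Zmym2 joined them at 0.25 (adjusted p = 0.028). Calls of all 4 genes are lost in 2 to 5 alternative settings on at least 1 diet, with adjusted p-values up to 0.183. Rcor1 (-0.33 and -0.10) and Phf21a (-0.18 and -0.04) did not pass.

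Of 3 NCoR complex genes tested, Tbl1xr1, an exchange factor subunit, was higher in VP by 0.49 ± 0.07 (SE; limma adjusted p = 1.2e-05) and by 0.55 on HFD. Its paralog Tbl1x differed by 0.08 on the control diet (adjusted p = 0.43) and was higher by 0.43 on HFD (adjusted p = 0.00021). Gps2 differed by 0.03 and -0.11 and did not pass. Tbl1x also came close to a diet call in VP: HFD minus control was 0.32 ± 0.08 (SE; limma adjusted p = 0.0527), the diets do not overlap, and it passed in 4 alternative settings (adjusted p from 0.035 to 0.047), whereas the mean of probe sets gave 0.07 (adjusted p = 0.70).

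Of 12 histone acetyltransferases, which add the marks that deacetylases remove, 4 were higher and 3 lower in VP on the control diet and 4 higher and 2 lower on HFD, near the 55% and 52.9% of all genes. Kat2b was higher by 0.52 ± 0.07 (SE; limma adjusted p = 8.1e-06) and its paralog Kat2a by 0.39 ± 0.10 (adjusted p = 0.0017). Kat5 differed by -0.45 ± 0.07 (adjusted p = 2.3e-05) and Ep300 by -0.34 ± 0.07 (adjusted p = 0.00052). Of 7 sirtuins, the NAD-dependent deacetylases, 1 was higher and 1 lower on each diet, below those shares. Sirt1 differed by -0.39 ± 0.09 (adjusted p = 0.00080) and by -0.38 on HFD. The higher gene was Sirt5 on the control diet (0.23, adjusted p = 0.047) and Sirt7 on HFD (0.20, adjusted p = 0.045), and these calls are lost in 11 and 10 alternative settings, with adjusted p-values up to 0.112 and 0.120. Sirt2 (-0.27 and -0.30), Sirt3 (0.14 and 0.13), Sirt4 (-0.20 and 0.04) and Sirt6 (0.02 and 0.03) did not pass. Apart from Mef2d in VP, none of the genes of these 9 lists passed a diet contrast in limma's fit, with Tbl1x in VP at the margin.

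**Figure D5:**
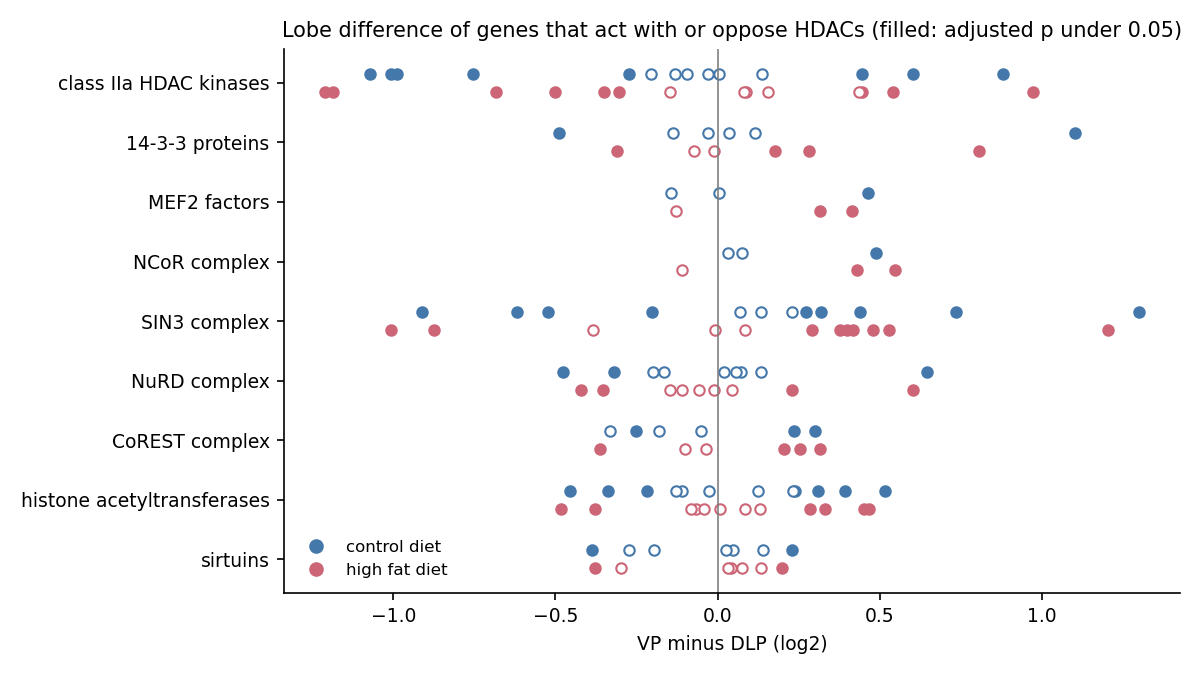
VP minus DLP difference (log2) of genes in 9 lists that act with or oppose histone deacetylases, 1 point per gene and diet, filled where the limma adjusted p is under 0.05. Points fall on both sides of 0 in every list with at least 6 genes, from -1.21 for Camk2g to 1.30 for Sap30.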

How the data were processed

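Total RNA of ventral and dorsolateral prostate lobes was measured on 19 Affymetrix 3′ arrays in 4 groups. The deposited values, whose log10 scale is inferred here, ran from 0 to 3.99. The submitters' processing notes name MAS5, and no further step, log base or offset is given in the sources used here. The spiked-in controls bioB, bioC, bioD and cre rose by 0.50, 0.62 and 0.99 from each to the next, against 0.52, 0.70 and 0.60 for log10 of nominal concentrations, and these steps changed with the control probe sets taken. Values were multiplied by log2(10) and not normalized again. The 64 control probe sets of 45101 were set aside. The annotation gave 1 symbol to 34945, several to 932 and none to 9160, and 34741 symbols were updated through gene identifiers. A probe set was kept when above its own array's median on at least 4 arrays, and the one with the highest mean stood for its gene.

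Tests used limma 3.58.1 in R 4.3.3 (4 group means on all 19 arrays, eBayes with trend), Benjamini-Hochberg adjusted over 11728 genes, two-sided, at 0.05. Exact permutation tests were run in scipy 1.17.1. The fit was tested on simulated data. The number of arrays limits the precision.

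Members and lists were chosen with earlier results of these data known, and the motif and the 50 VP genes after values were seen. Named genes were all members, the 6 and 4 genes most correlated with Hdac9 by each measure, and, per list, up to 4 genes past the threshold with the largest change and all tested genes of lists of at most 8. Alternatives covered scale, filter, probe set choice, variance prior, weights, normalization, the replicate number as a block, separate fits and each array left out. The anterior lobe was not analysed here, and a few list genes and 1 further motif are not reported here.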

Additional observations from a re-analysis of the deposited data

Results flagged for a closer look

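Within groups of 4 or 5 arrays, 3 member levels stood farther from the rest of their group than Dixon's test allows at its 95% level, among 40 sets of 1 gene in 1 group. Chance flags about 1 in 20 such sets. Hdac3 read 5.16 on HFD DLP array 4, where the other 3 arrays lay between 5.28 and 5.30. Hdac8 read 0.85 on HFD VP array 1, against 1.68 to 1.84 on the others, and all of these are at or below the array median of 1.85. Hdac11 read 4.83 on HFD DLP array 2, against 4.65 to 4.67. Without that array the HFD lobe difference of Hdac11 is among the 19 leave-one-out values of 0.46 to 0.58, all past the threshold.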

How the results depend on the processing

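Of the alternative values for the 10 members, 1443 kept their direction and side of the threshold. Another 60 changed direction, with no call in either fit. A call was lost in 20 and gained in 2 with the direction kept, and 0 changed direction where either fit gave a call. The values that stayed include Hdac9's lobe contrasts, for which it was picked, and the offset of 0, which repeats the main fit. They also include fits without an array from outside the contrast, where the estimate cannot change. Part of that count was thus fixed in advance, and it does not measure stability. The lost and gained calls are those of Hdac1, Hdac2, Hdac3, Hdac5 and Hdac7 given above. With each probe set by itself and no filter on low values, the HFD lobe calls of Hdac1 and Hdac2 also missed (limma adjusted p = 0.053 and 0.077). Keeping each probe set past the filter by itself raised the control-diet lobe count from 6451 to 10934 genes or probe sets. On HFD the count rose from 6204 to 10445, in both cases by testing more features. Leaving out arrays gave 6099 to 6584 and 5640 to 6411. The VP diet count of 130 became 21 with 1 weight per lobe, 47 with array weights, 83 with a constant variance prior, 47 with the mean of probe sets, 78 without the filter, 202 with each probe set by itself and 209 with a filter set at the 75th percentile. Fitted alone, VP gave 0 by limma (1222 genes at an unadjusted p under 0.05, smallest adjusted p 0.0507), and leaving out arrays gave 70 to 148. The DLP diet count of 0 became 6 with 1 weight per lobe, 5 with array weights and 1 without the filter, and 0 to 2 without 1 array. The interaction count of 1 became 2 with each probe set by itself, 0 by limma with the mean of probe sets (913 genes at an unadjusted p under 0.05), 3 without control VP array 4 and HFD VP array 3 together, and 0 to 2 without 1 array. The cause of these moves was not tested. Hdac9's diet difference in VP became 0.090 without both of those arrays and ranged from -0.20 to 0.0038 without 1 array. In DLP it became -0.14 with the other probe set and ranged from -0.11 to 0.32. Averaging probe sets reversed HFD lobe differences of Gatad2a (-0.16), Ywhae (-0.092) and Ywhaq (-0.15). An offset of 0 leaves log2 values as they are.

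Titles number the arrays 1 to 5, but same-numbered arrays did not all deviate together. Control VP and HFD VP came from different mice. Between them r was 0.46, 0.38 and 0.17 for numbers 2, 3 and 5 but -0.10 and 0.03 for numbers 1 and 4. Between the lobes r was 0.19, 0.14, -0.07, 0.08 and 0.0024 for numbers 1 to 5 on the control diet. On HFD it was 0.15, 0.06, 0.0017 and 0.15 for numbers 1 to 4. Without mouse labels these values cannot decide whether equal numbers mark 1 mouse, and the numbers were not taken to pair samples. With the replicate number as a block the VP diet count was 93, the interaction count 0 by limma (1053 genes at an unadjusted p under 0.05) and the lobe counts 6443 and 6154, Mef2d in VP missed the threshold (adjusted p = 0.051) and Tbl1x in VP passed it (0.32, adjusted p = 0.038).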
